A study of Mus musculus with 8 samples.

Results

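Ribosomal DNA encodes the 18S, 5.8S and 28S RNAs of the ribosome and lies in the genome as long tandem arrays of near-identical units. RNA polymerase I transcribes each unit from a promoter in the spacer, through an external transcribed spacer, into 18S. Only part of the units is active in a cell, and silent units are known to carry methylated CpGs. The mm10 assembly holds a copy of the 18S sequence, 1849 bp long, on chromosome 17, which RefSeq (GRCm38.p6) lists as the pseudogene Rn18s-rs5. Reads from any of the arrayed units with the same sequence can align there, so a level at this copy is a mean over an unknown number of units. Bisulfite reads do not tell a converted cytosine from a thymine in the DNA, so a unit with another base at a CpG can alter the level read there. Sequence differences between units, in these outbred mice, were not analysed here.

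The members were all CpGs, with both strands added, that had at least 10 reads in all 8 libraries between 5 kb before and 5 kb after the 18S copy. This gave 443 CpGs of the 441994 shared autosomal CpGs of the series, out of 590 CpGs of the copy with any read. Of these, 317 lay before the 18S start (upstream), 73 in 18S and 53 after its end (downstream). The terms upstream and downstream follow the coordinates here, since the gene table gives no strand for Rn18s-rs5. Downstream CpGs also lie in the lncRNA model AY036118, which spans 39848112 to 39898385 and is annotated on the minus strand. Its start is thus at the higher coordinate, away from 18S.

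DNA came from nephron progenitors of embryonic kidneys at stage E17.5, sorted by the GFP of a Six2-EGFP/cre transgene carried in heterozygous form by all embryos, on the outbred CD1 background. Fathers with the transgene were mated to wild-type CD1 females, and both parents were 8 to 10 weeks old. In the restricted group (4 libraries) the pregnant females received 70% of the average daily intake, and in the unrestricted group (4 libraries) they ate freely. The labels name no litter or embryo for a library and no sex, so the p-values here speak of no variation beyond these 8 libraries. Methylation was read by reduced representation bisulfite sequencing (RRBS), which sequences CpG-rich restriction fragments after unmethylated cytosines have been converted. The sort gene Six2 had a gene-start window at under 1% methylation in the 8 libraries, which does not identify a cell type. Windows could be placed for 3 of the 7 progenitor genes listed.

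The shared CpGs did not reach the whole region. The first lay at 39843026 and the last at 39848698, so that 3328 bp before 18S and 496 bp after it were covered. The outermost 1672 bp on the upstream side, where a promoter side would be sought, and 4504 bp on the downstream side held no shared CpG. The nearest excluded CpG by reads, at 39841853, lay in that outer upstream stretch, had 9 to 60 reads and was 66.7 to 100% methylated. Just inside the minimum, the CpGs at 39846620 and 39846624 each had 10 reads in restricted library 3.

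The copy was read far deeper than the rest of the genome. The libraries held 16045992 to 37305007 reads at CpG cytosines in all, with a median of 20 to 44 reads per shared CpG and 646 to 2044 per CpG of the copy. A read counts once at each CpG cytosine it covers, so the totals are sums of counts per cytosine and not numbers of separate reads. Of these counts, the 443 CpGs took 3.32, 2.86, 2.73 and 3.56% in restricted libraries 1 to 4. In unrestricted libraries 1 to 4 they took 2.54, 3.05, 2.59 and 2.55%. The groups overlapped, because unrestricted library 2 stood above restricted libraries 2 and 3. The mean share was 3.12% ± 0.385 (SD, n = 4) with restriction and 2.68% ± 0.248 (SD, n = 4) without it, a difference of 0.435 points (exact two-sided permutation p = 0.143). Upstream CpGs took 68.3 to 72.0% of the copy's counts, 18S 17.6 to 20.4% and downstream CpGs 10.4 to 11.3%.

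Most CpGs of the copy were lowly methylated. Over the 8 libraries, 26 of the 443 had a mean level under 5%, 339 lay between 5 and 20%, 58 between 20 and 50%, and 20 at 50% or more. The highly methylated CpGs stood in short stretches. Within 39844830 to 39844893, 7 CpGs had mean levels of 50.8 to 72.5%, and within 39846203 to 39846234, 6 CpGs had 55.9 to 67.6%. None of these 13 CpGs was called for diet, and 2 of the other 7 CpGs at 50% or more were, 39845236 and 39846638.

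**Figure D1:**
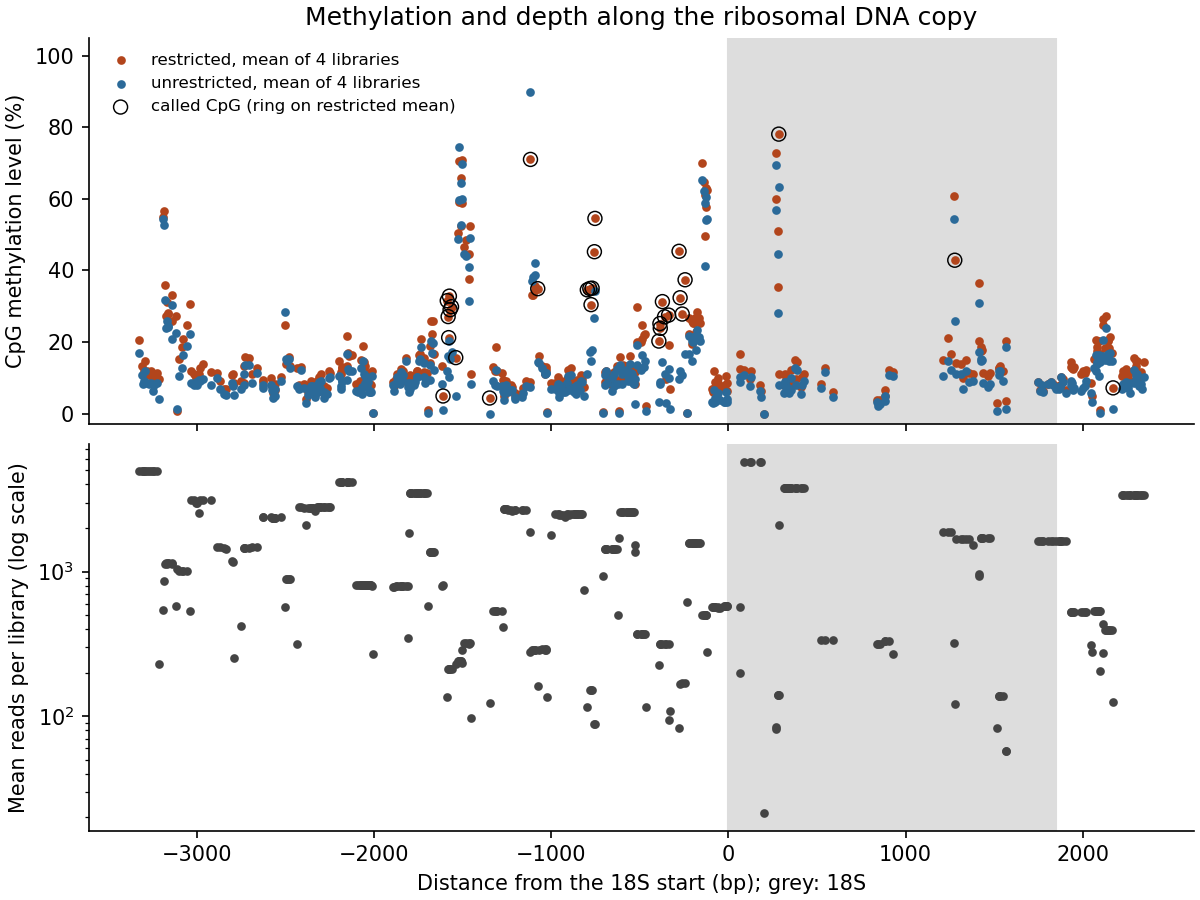
CpG methylation level in percent (top, mean of the 4 libraries of each group, a point per CpG) and mean reads per library on a log scale (bottom) against the distance from the 18S start in bp, with 18S in grey and rings on the 30 called CpGs. Levels of 5 to 20% run along most of the copy, and the called CpGs sit in shallower stretches, 27 of them before 18S.

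Neighbouring CpGs on the same fragments share reads and are not independent. Joined where reads differed by less than 10% on the natural log scale in every library, the 443 CpGs formed 108 runs of 1 to 21 CpGs. Both strands had at least 10 reads in every library at 384 CpGs, and the strands differed there by a median of 1.88 points. At 17 of these CpGs the difference was over 10 points.

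Averaged over its CpGs, the copy was at 16.6, 12.0, 18.1 and 18.7% in restricted libraries 1 to 4 and at 13.3, 15.7, 11.5 and 11.6% in unrestricted libraries 1 to 4. The groups overlapped, since restricted library 2 fell among the unrestricted libraries and unrestricted library 2 stood above it. The group means were 16.4% ± 3.02 (SD, n = 4) and 13.0% ± 1.99 (SD, n = 4), a difference of 3.36 points. The means over the members carry no test. The restricted mean was the higher at 423 CpGs and the lower at 19, where it was the higher at 48.3% of all tested CpGs. The median difference over the 443 CpGs was 2.21 points, against -0.14 over all 191637 tested CpGs of the genome.

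Before the 18S start the mean level was 17.4, 12.6, 19.1 and 19.1% in the restricted libraries and 13.9, 16.4, 11.8 and 12.1% in the unrestricted ones. This gave group means of 17.0% ± 3.07 and 13.5% ± 2.10 (SD, n = 4 each). Levels in 500 bp bins were uneven along this side. The bin at -2000 to -1501 bp from the 18S start was at 21.3% ± 4.46 and 17.9% ± 2.21, the bin of the last 500 bp before 18S at 24.7% ± 2.52 and 16.9% ± 3.34, and the bin at -2500 to -2001 bp at 10.6% ± 3.28 and 8.55% ± 2.26 (restricted and unrestricted, SD, n = 4). The difference between the groups was 7.79 points in the last 500 bp and 1.44 to 3.52 points in the other 6 upstream bins. The groups overlapped in each of these bins. In the last 500 bp restricted library 2 was at 21.0% and unrestricted library 2 at 21.3%.

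Within 18S the libraries were at 15.6, 11.3, 16.6 and 18.4% with restriction and at 12.9, 14.8, 11.6 and 11.9% without it. The group means were 15.5% ± 3.03 and 12.8% ± 1.43 (SD, n = 4 each). The bin from 500 to 999 bp after the 18S start was the lowest of the covered bins, with 7.27% ± 2.33 and 6.16% ± 2.23, over 10 CpGs. After 18S the libraries were at 13.5, 9.63, 14.4 and 16.8% with restriction and at 10.3, 13.1, 9.00 and 8.20% without it. All 53 downstream CpGs, which formed 11 runs, had the higher restricted mean, where 48.3% of all tested CpGs did. The group means downstream were 13.6% ± 2.98 and 10.1% ± 2.16 (SD, n = 4 each). In each segment restricted library 2 was the lowest of its group and unrestricted library 2 the highest of its group.

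**Figure D2:**
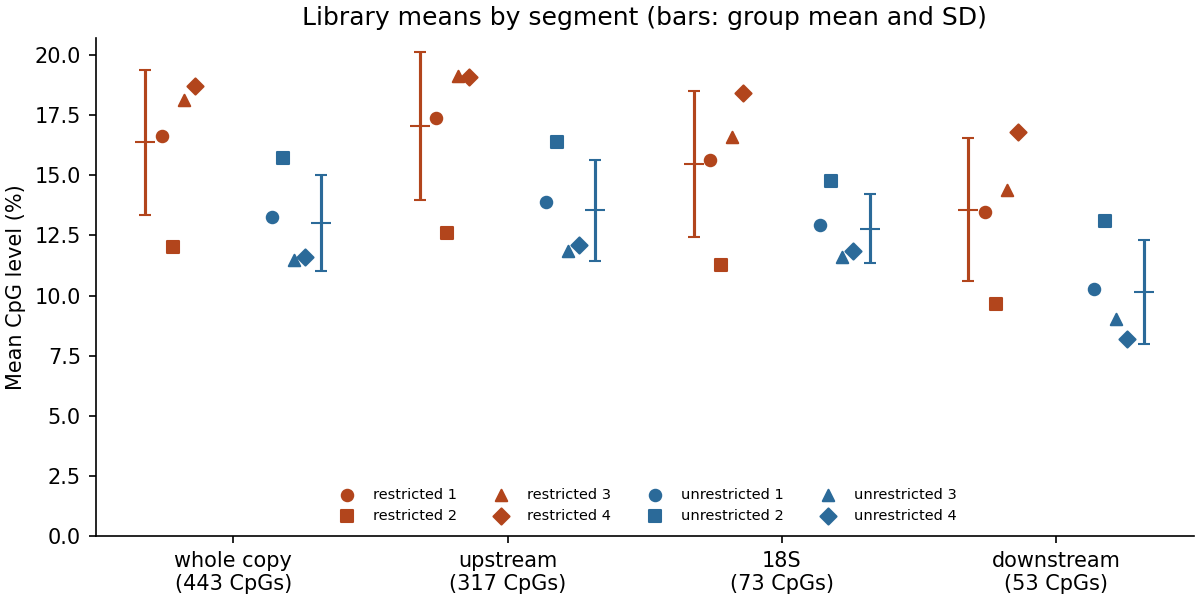
Mean CpG level in percent of each library (points, shape by replicate number) in the whole copy and its 3 segments, with bars for the group mean and SD (n = 4). The restricted mean is higher in each segment, and the libraries of the groups overlap in each.

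Single CpGs were tested in a logistic model of methylated on total reads, and a CpG was called at an adjusted p under 0.05 over all tested CpGs of the genome. Of the 442 members tested, 30 were called, 29 higher and 1 lower with restriction, where 0.0955% of all tested CpGs were called in either direction, 0.0574% as higher and 0.0381% as lower. Of the 760 tested CpGs outside the copy with a mean of at least 100 reads, 2.76% were called. The member not tested, in 18S at 39846554, had no methylated read. By segment, 27 of 317 upstream, 2 of 72 18S and 1 of 53 downstream CpGs were called. The difference in these counts between segments was not tested. The number of calls depends on the dispersion prior. It was 67 with a prior shared by all depths (0.0997% of all tested CpGs) and 0 with a prior taken from deep CpGs (0% of all). The count also changed with the model, to 15 with edgeR (0.048% of all) and 1 with limma on log ratios (0.00104% of all), and that last CpG was not among the 30. Over the called CpGs the median dispersion between libraries was 4.20 as observed and 1.88 after moderation, and over the 442 tested members it was 13.8 and 12.1. The prior, taken from CpGs of like depth, carried 61.6 degrees of freedom. The p-values of single CpGs thus rest mostly on this borrowed dispersion and less on the spread of the libraries at the CpG itself.

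Calls lay in the shallower part of the copy. A split at a mean of 500 reads, chosen after the values were seen, left 335 deeper CpGs, of which 1 was called, and 108 shallower ones, of which 29 were called. Of all tested CpGs 0.0955% were called, and of the 760 deep ones outside the copy 2.76%. The shallower set holds 29 of the 30 calls, so a group difference over it is no support apart from them. At the shallower CpGs the libraries were at 28.4, 23.6, 24.0 and 28.2% with restriction and at 19.8, 20.9, 19.7 and 19.5% without it. Here the groups did not overlap, and the group means were 26.0% ± 2.59 and 20.0% ± 0.608 (SD, n = 4). By segment, this held for the 69 shallower CpGs upstream, with a difference of 7.47 points. The groups overlapped at the 26 in 18S (3.30 points) and the 13 downstream (3.94 points). At the deeper CpGs the libraries were at 12.8, 8.32, 16.2 and 15.7% and at 11.2, 14.1, 8.79 and 9.02%, and the groups overlapped. Over all 442 tested members, 20 had every restricted library above every unrestricted library and 0 had the reverse, where 0.847% and 0.948% of all tested CpGs did. For the 760 deep CpGs outside the copy, the first of these shares was 3.42%. Of the 20, 13 were among the 30 called CpGs, and at the other 17 called CpGs the groups overlapped.

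**Figure D3:**
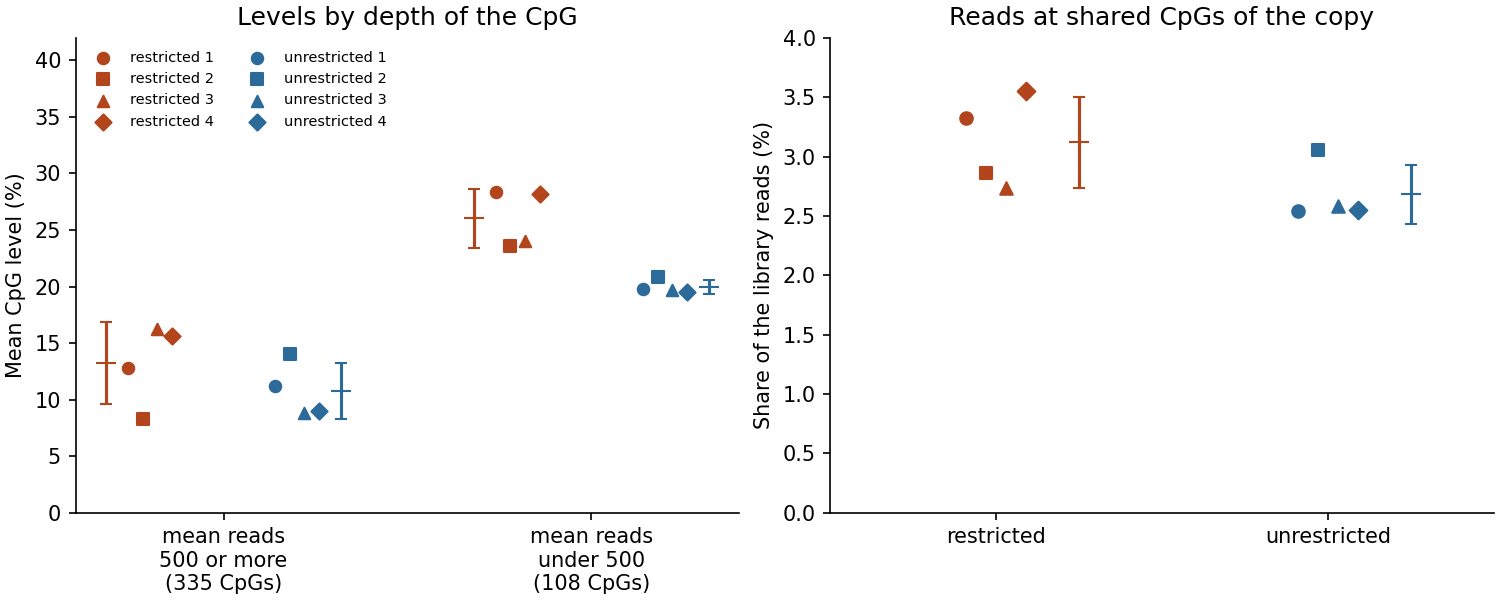
Left, mean CpG level in percent of each library over members with a mean of 500 or more reads and of fewer. Right, percent of each library's read counts at CpG cytosines that fell at the 443 CpGs. Bars are group mean and SD (n = 4). The groups overlap at the deeper CpGs and in the read share, and are apart at the shallower CpGs.

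The CpG of smallest p upstream, at 39846075 and 279 bp before 18S, was at 69.3, 70.3, 10.0 and 31.8% in the restricted libraries. In the unrestricted libraries it was at 2.04, 10.6, 5.56 and 20.5% (18 to 257 reads per library). Restricted libraries 1 and 2 stood apart there, and restricted library 3 lay among the unrestricted ones. The difference was 35.7 points (adjusted p = 7.81e-07). It fell to 11.2 points without restricted libraries 1 and 2 and was then no longer called.

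The next CpG by p, at 39845961, was at 31.0, 35.7, 2.26 and 12.2% with restriction and at 2.54, 0.760, 4.44 and 4.86% without it (90 to 520 reads). The order of the libraries was the same as at 39846075 in that restricted 1 and 2 were high and restricted 3 low. The difference was 17.1 points (adjusted p = 1.84e-06), 12.0 without restricted library 2 and 4.08, not called, without both restricted 1 and 2.

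At 39845967, 6 bp further on, the libraries were at 31.1, 27.4, 21.2 and 21.0% with restriction and at 10.8, 10.0, 6.02 and 6.52% without it (133 to 691 reads). All 4 restricted libraries were above all 4 unrestricted ones. The difference was 16.8 points (adjusted p = 1.98e-06), and it was 12.7 points and still called without restricted libraries 1 and 2. On the forward strand alone it was 10.0 points and not called.

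The most methylated upstream CpG was also the only lower call. At 39845236 the libraries were at 61.5, 46.9, 95.2 and 80.5% with restriction and at 94.8, 93.8, 84.8 and 85.9% without it (145 to 518 reads). Restricted 1 and 2 were the low libraries, and restricted 3 was the highest of all 8. The difference was -18.8 points (adjusted p = 1.41e-05), -10.8 without restricted library 2 and -2.03, not called, without restricted 1 and 2. The call was also lost in a fit only to CpGs with a mean of at least 100 reads (adjusted p = 0.0609). It was kept with edgeR (adjusted p = 0.00176). The forward strand averaged 87.1% over the 8 libraries and the reverse strand 72.0%. The deepest upstream CpG, at 39843045 (3109 to 7225 reads), was at 10.8% ± 3.08 and 8.39% ± 2.37 (SD, n = 4; adjusted p = 0.619). The least methylated, at 39844344, had methylated reads in 3 of the 8 libraries only, at 0.319% in restricted 1, 0.437% in unrestricted 3 and 0.339% in unrestricted 4 (161 to 465 reads).

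In 18S the CpG of smallest p, at 39847632, was at 46.4, 34.0, 28.0 and 63.0% with restriction and at 14.9, 15.4, 27.8 and 45.2% without it (18 to 280 reads). The groups overlapped through unrestricted library 4. The difference was 17.0 points (adjusted p = 0.000157), 10.3 without restricted library 4. The call was lost with edgeR (adjusted p = 0.269) and in a fit only to CpGs with a mean of at least 100 reads (adjusted p = 0.0503). At 39846638 the libraries were at 77.6, 80.2, 71.9 and 82.7% with restriction and at 61.7, 59.4, 71.7 and 60.5% without it (32 to 415 reads). The groups did not overlap, although restricted 3 and unrestricted 3 were within 0.2 points, and the difference was 14.7 points (adjusted p = 0.00208). Its strands differed, with a mean of 94.7% on the forward and 47.8% on the reverse strand. The difference was 5.43 points on the forward strand, where the call was lost (adjusted p = 0.569), and 23.6 points on the reverse strand, where it was kept. The CpG was not called by edgeR (adjusted p = 0.723).

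The third 18S CpG by p, at 39847627, was at 70.2, 59.4, 33.5 and 79.7% with restriction and at 40.3, 37.8, 67.1 and 72.7% without it, and did not pass (adjusted p = 0.136). It was called in 5 of the 8 fits that left out 1 library. A minimum of 20 reads (adjusted p = 0.0197) and the forward strand alone (adjusted p = 0.00583) also gave a call, the reverse strand did not (adjusted p = 0.564). Without restricted 4 it was called (adjusted p = 0.0227) at a difference of -0.101 points. Printed differences are between unweighted means of library levels, whereas the fit pools the reads of each group. The most methylated 18S CpG, at 39846624, was at 72.8% ± 15.3 and 69.4% ± 6.73 (SD, n = 4; adjusted p = 0.616), with 10 to 293 reads. The deepest, at 39846477 (3468 to 8763 reads), was at 9.63% ± 4.01 and 7.79% ± 2.44 (SD, n = 4; adjusted p = 0.792). The CpG without methylated reads, at 39846554, had 13 to 38 reads per library, which allows levels of up to 7.89 to 23.1%.

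After 18S the called CpG, at 39848526, was at 9.24, 15.3, 0 and 4.26% with restriction and at 0, 1.25, 3.45 and 0.943% without it (58 to 238 reads). Restricted library 3 had no methylated read there. The difference was 5.79 points (adjusted p = 0.0407), and the call was lost in 4 of the 8 fits that left out 1 library, with 5.11 points without restricted 1, 3.09 without restricted 2, 5.32 without unrestricted 1 and 5.64 without unrestricted 4. The call was also lost with edgeR (adjusted p = 0.128). A fit only to CpGs with a mean of at least 100 reads lost it too (adjusted p = 0.131). Without restricted 1 and 2 the difference was 0.717 points, and on the forward strand alone 1.20 points, neither called. The call was kept with a prior common to all depths (adjusted p = 0.0438) and with a minimum of 20 reads (adjusted p = 0.0148). At 39848471 the libraries were at 34.5, 31.9, 1.56 and 37.7% with restriction and at 7.44, 15.3, 22.7 and 19.1% without it, a difference of 10.3 points that did not pass (adjusted p = 0.0604). Without each library in turn it ran from 6.50 points (without restricted 4) to 18.6 points (without restricted 3), and the CpG was called in 6 of these 8 fits, not without restricted 1 or unrestricted 1. It was also called with a minimum of 20 reads (adjusted p = 0.00917). At 39848297 the group means were 12.5% ± 4.29 and 6.48% ± 3.56 (SD, n = 4; adjusted p = 0.618). The most methylated downstream CpG, at 39848488, was at 27.4% ± 5.96 and 23.8% ± 2.87, the least methylated, at 39848454, at 0.997% ± 0.844 and 0.196% ± 0.392, and the deepest, at 39848698 (2034 to 5388 reads), at 14.3% ± 2.79 and 10.3% ± 2.69 (SD, n = 4). None of these 3 passed.

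Restricted library 3 was above restricted library 2 at 378 of the 443 CpGs and below it at 63, 52 of them with a mean under 500 reads, and 29 of the 30 called CpGs were among the 63. This split was made after the values were seen and carries no test. Of the libraries that did not define the split, restricted 1 averaged 29.3% at the 63 CpGs and 14.5% at the other 380, with restricted 4 below it at the 63 and above it at the 380. Unrestricted libraries 1 to 4 averaged 11.7, 13.9, 16.3 and 16.4% at the 63, and 13.5, 16.0, 10.7 and 10.8% at the 380. Levels could also differ between neighbours within the 63. At 39845557 the libraries were at 50.7, 50.8, 5.66 and 31.2% with restriction and at 3.33, 1.83, 18.2 and 20.5% without it. At 39845571, 14 bp further on, they were at 44.3, 38.6, 21.7 and 35.2% and at 14.9, 14.2, 18.4 and 21.7%. These last 2 CpGs were chosen after their values were seen.

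**Figure D4:**
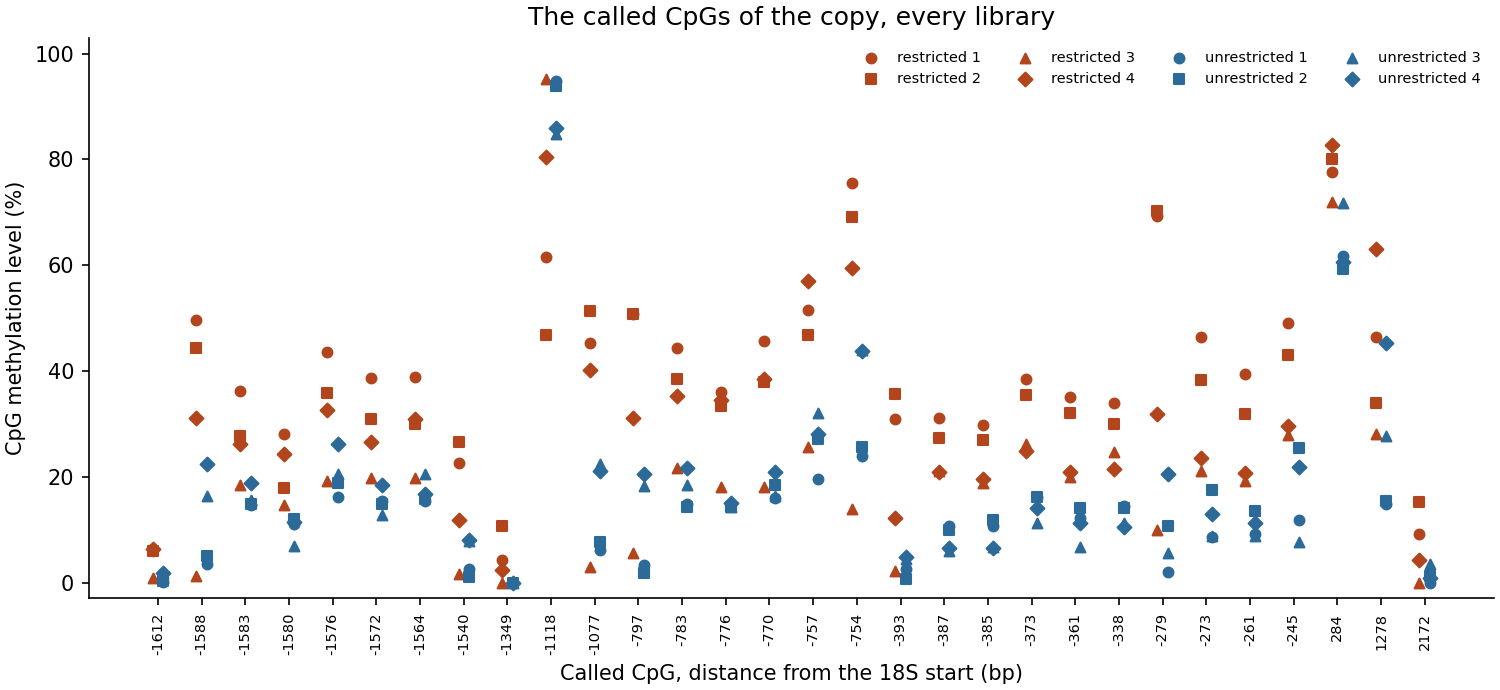
Methylation level in percent of all 8 libraries at the 30 called CpGs, ordered along the copy and labelled by distance from the 18S start in bp; colour is the group and shape the replicate number. Restricted 3 (triangles) often lies among the unrestricted libraries, and the CpG at -1118 bp is the only lower call.

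Restricted libraries 1 and 2 also differed from the rest outside the copy. Over the shared CpGs with the copy removed, the read-weighted minus the unweighted mean level was -2.19 and -3.07 points there, while the remaining 6 lay from -0.511 to 1.12 points. Leaving both out, 7 members were called, all higher, of which 3 were among the 30, where 0.137% of all tested CpGs were called. With that measure, taken over all shared CpGs, as a covariate, 133 of 433 members were called, 130 higher, where 0.419% of all 96813 CpGs in that fit were called, and 1 of the 133 was among the 30. The part of this measure in the calls was not tested further.

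No 1 kb tile of the copy passed the test. The 6 tiles from 39843001 to 39848001 held 33 to 106 shared CpGs each, and their differences were 3.22, 3.10, 2.28, 3.98, 3.78 and 3.15 points in order of position, all higher with restriction (adjusted p from 0.749 to 0.774). Groups overlapped in each tile. Tiles were called at 0.0177% of the 33897 tested. At an unadjusted p under 0.05, 4 of the 6 passed, where 6.30% of all tiles did. The test of edgeR called those starting at 39843001 and 39846001 (0.325% of all tiles). The fit with the covariate called others, those starting at 39844001 and 39845001 (0.0223% of the tiles in that fit). With limma 0 of the 6 were called (0% of all tiles), and 0 had an unadjusted p under 0.05.

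The genes of RNA polymerase I and of the nucleolus were nearly unmethylated at most of their starts in both groups. Of 62 listed symbols, 46 had a 1.5 kb gene-start window and 44 were tested, of which 0 passed, where 0.124% of the 11331 windows did; 2 had an unadjusted p under 0.05, where 6.95% of all windows did. With limma 0 were called (0% of all windows) and 3 had an unadjusted p under 0.05, where 6.82% of all windows did. The median difference was 0.00122 points, against -0.00528 points over all windows, and 22 windows were higher and 22 lower. At 42 of the 44 both groups were under 1%. The other two were Smarca5, a chromatin remodeller of the nucleolar silencing complex, at 12.8% ± 2.54 and 12.7% ± 3.64, and Mdm2, the ligase that limits p53, at 6.92% ± 1.73 and 6.40% ± 1.96 (restricted and unrestricted, SD, n = 4). These were named after their values were seen.

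Among the 5 windows of smallest p were Tbp, the TATA-binding protein shared by all 3 polymerases, at 0% in the 4 restricted libraries and 0.119% ± 0.0947 without restriction (adjusted p = 0.590), and Polr2f, a subunit shared between polymerases, at 0.0933% ± 0.117 and 0% (adjusted p = 0.676). The others were Taf1a, a subunit of the promoter selectivity factor SL1, at 0.150% ± 0.182 and 0%, Nop56, a component of box C/D particles, at 0.116% ± 0.0627 and 0.0290% ± 0.0335, and Ercc6, a repair factor, at 0% and 0.0691% ± 0.0809. The architectural factor Ubtf was at 0.114% ± 0.227 and 0.236% ± 0.327, the core subunit Polr1b at 0.104% ± 0.122 and 0.0419% ± 0.0838, and the initiation factor Rrn3 at 0.0660% ± 0.0943 and 0.0324% ± 0.0648. The terminator protein Ttf1 was at 0.112% ± 0.224 and 0.0427% ± 0.0855, and Baz2a, which recruits silencing enzymes to ribosomal DNA, at 0.0416% ± 0.0510 and 0.0917% ± 0.0775. Taf1b, over 3 CpGs, was at 0% and 0.417% ± 0.833. No window was analysed here for Polr1a or Dnmt1.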

How the data were processed

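RRBS libraries from 8 samples were grouped by their titles. Per the submitters' processing notes, Trim Galore 0.3.3, FastQC, cutadapt, Bismark 0.13.1, methylKit and the build mm10 were used, with no settings named. The copy spans chr17:39841354-39853202, with 18S at chr17:39846354-39848202. The deposited files give, per CpG cytosine and strand, a count of reads and the percent called methylated and unmethylated, with no coverage minimum applied by the authors. Multiplying count by percent and rounding gave the methylated reads; before rounding the result was at most 0.0488 from a whole number up to 1000 reads per cytosine, and at most 0.230 in the copy. Mitochondrial CpGs were called methylated in 0.0221 to 0.0854% of reads. Wilson 95% intervals of the named CpGs were 0.819 to 52.7 points wide per library and cover counting error only, since PCR copies cannot be removed.

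Each unit was fitted by a logistic model with diet, over all 8 libraries. Diet was judged by an F test of the change in deviance, with a Pearson dispersion of at least 1 that was moderated by squeezeVar of limma 3.58.1 with a trend on coverage, and Benjamini-Hochberg adjustment over all autosomal CpGs, 1 kb tiles or gene-start windows tested. A trend was used because the copy is far deeper than the median CpG. Units with no methylated or no unmethylated read were left out. The model was also run on simulated CpGs that were independent and whose dispersion followed depth alone, as the trend assumes. That run therefore cannot gauge false calls in the copy. Windows ran from 1000 bp outside to 500 bp inside the gene; 7 of the 46 listed windows, without a known strand, used the end richer in CpGs. The share of read counts at CpG cytosines was compared over the 70 labelled splits (smallest p 0.0286). Alternatives included edgeR 4.0.16 and limma.

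Named CpGs, by segment, were the 3 of smallest p, the highest and lowest level and the deepest; named windows were the 5 of smallest p and 8 listed genes. Members, lists and this rule were chosen with earlier results of these data known. Same-numbered libraries were not paired. No genome sequence was used here, so no sequence is printed.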

Additional observations from a re-analysis of the deposited data

Results flagged for a closer look

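A gap test within groups of 4 libraries, which chance passes in about 1 group of 20, was made 80 times and marked these values. At 39846624 restricted library 3 was at 50% against 78.3 to 83.2% in the rest of its group, on 10 reads. At 39848471 restricted library 3 was at 1.56% against 31.9 to 37.7%. At 39848698 restricted library 2 was at 10.1% against 15.4 to 16.0%. Unrestricted library 2 gave the copy 3.05% of its read counts at CpG cytosines, against 2.54 to 2.59% in the other unrestricted libraries.

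Where the other libraries of a group have no methylated read, a lone library with any always passes the gap test. The chance rate given above does not hold there. The remaining values were all of this kind and stood out against libraries without any methylated read. These were 0.319% in restricted 1 at 39844344, 0.784% in unrestricted 2 at 39848454, and, at gene-start windows, 0.455% in restricted 4 for Ubtf, 0.168% in unrestricted 4 for Polr1b, 0.1295% in unrestricted 3 for Rrn3, 0.448% in restricted 1 and 0.171% in unrestricted 4 for Ttf1, and 1.67% in unrestricted 3 for Taf1b.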

How the results depend on the processing

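Of the 443 CpGs, 30 were called. The count was 67 with a prior common to all depths (0.0997% of all tested CpGs) and 0 with a prior from units of at least 100 reads (0% of all). A fit only to such CpGs, chosen after seeing the data, called 19 of 432 members, where 3.36% of its 1192 CpGs were called. With the read-weighting measure as a covariate the count was 133 of 433 (0.419% of all in that fit), and without restricted 1 and 2 it was 7 (0.137%). It was 1 with limma (not among the 30, 0.00104% of all) and 15 with edgeR (0.048%). The forward strand gave 10 of 423 (0.144% of all) and the reverse strand 25 of 399 (24 of them among the 30, 0.125% of all). Without each library in turn the count was 26 to 44 (0.0952 to 0.309% of all). With the replicate number as a block 0 were called and 56 of 433 had an unadjusted p under 0.05, where 3.70% of all CpGs in that fit did; same-numbered libraries correlated at -0.0734 to 0.0168, so the numbers do not pair the libraries. Tile calls rose from 0 to 2 with edgeR and with the covariate. The difference in mean level was 2.58 to 4.81 points for the copy without each library in turn, and over shallower CpGs 6.04 points, or 7.47 upstream. The shallower set was chosen after the values were seen and holds most of the called CpGs. The share of reads permuted within replicate numbers had an exact p = 0.375. The smallest p this permutation can give is 0.125, so it could not have passed 0.05. Without each library in turn, 39846624 ran from -0.160 (without restricted 4) to 10.9 points, and was -2.85 without restricted 1 and 2; 39847627 ran from -0.101 (without restricted 4) to 15.3. Ubtf ran from -0.236 to 0.0309 (without unrestricted 3), Rrn3 from -0.0111 (without restricted 3) to 0.0660 and Ttf1 from -0.0427 (without restricted 1) to 0.112. The cause was not tested. Reads include PCR copies, and neighbouring CpGs share fragments, so counts of calls are not counts of independent sites.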
